A study of Homo sapiens with 4 samples.

Results

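The genes described here are the replication-dependent histone genes, the clustered genes that supply most of the protein onto which newly copied DNA is wrapped. Members were chosen by name alone: protein-coding genes whose older symbols begin with HIST1H, HIST2H, HIST3H or HIST4H. The reference tables name 71 such genes, of which 37 could be matched by identifier to a row of the count files, out of 57820 gene rows in all. By class, 6 of 6 genes of the linker histone H1 were matched, 9 of 17 of H2A, 10 of 18 of H2B, 7 of 15 of H3 and 5 of 15 of H4. The other 34 genes carry identifiers that the tables do not pair with a name and were not analysed here, so sums over a class cover its matched members only.

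RNA came from SY5Y cells, a human neuroblastoma line labelled as MYCN wild type, treated for 12 h with the solvent DMSO or with SGSS05-NS, and sequenced as 2 libraries per group. SGSS05-NS is the label's name, while the study reports its RNA-seq for SGSS05-NS3, which it describes as a covalent inhibitor of SETD8 (KMT5A). SETD8 is the enzyme that places a single methyl group on lysine 20 of histone H4. The study's discussion lists an SGSS05-NS as a member of the same series. In the study's enzyme assays SGSS05-NS3 also inhibited other methyltransferases, among them G9a, GLP and MLL1, at low micromolar concentrations. The labels give a dose of 3 μM, as does a figure legend of the study for these cells, while its methods give a lower dose. All 4 libraries are of 1 cell line, and the study describes them as independent biological replicates. Fragments assigned to genes numbered between 21463105 and 25350204 per library, and 16468 genes had enough counts to be tested. Of 8 fixed markers of noradrenergic neuroblastoma, 7 were tested, with a summed level between 1278 and 2329 CPM (fragments of a gene scaled to a common library size), while TH, which encodes tyrosine hydroxylase, was at or under 0.0856 CPM in every library. The summed level of 4 leukocyte markers stayed between 0.319 and 1.28 CPM, that of 4 epithelial markers between 1.91 and 3.78 CPM and that of 6 mesenchymal or Schwann cell markers between 67.2 and 83.0 CPM.

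Core histones H2A, H2B, H3 and H4 form the particle around which DNA is wound, and H1 binds the DNA between particles. Their replication-dependent genes are transcribed mainly in S phase, when DNA is copied. The mRNAs of these genes lack introns and a poly(A) tail. Each ends instead in a short stem-loop, which is bound by SLBP, cut by a machinery that includes the U7 small nuclear RNP, and degraded quickly when DNA synthesis stops. The study's methods describe total RNA libraries in which ribosomal RNA was removed, a preparation that keeps RNA without a poly(A) tail, whereas the labels name an Illumina TruSeq RNA kit without saying how RNA was selected.

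The stem-loop is the sequence that the members share, so its forms are shown first. A search of the bases just after the annotated stop codon for the histone stem-loop found it in 37 of 37 members. It was found in 71 of 20047 protein-coding genes (0.354%), a count that includes these 37. The 4 examples below are read from GRCh37 and stand for the 3 forms found in more than 1 member and for that of H2AC11, with the stem-loop in capitals and 5 bases on each side in lower case.
H1-5 (chr6:27834575-27834590, minus strand): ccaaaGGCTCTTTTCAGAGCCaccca
H2BC4 (minus strand of chromosome 6): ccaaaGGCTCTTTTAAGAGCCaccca
H2AC11 (plus strand of chromosome 6): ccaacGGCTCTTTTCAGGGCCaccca
H4C3 (plus strand of chromosome 6): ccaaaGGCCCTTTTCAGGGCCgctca
The form in H1-5 was carried by 22 members from H1, H2A, H2B and H3. That in H2BC4, with a different loop base, was carried by 8, and that in H4C3 by all 5 H4 members and by no other. H2AC11 alone joined the first arm of the H1-5 form to the second arm of the H4 form, and H2AC20 alone had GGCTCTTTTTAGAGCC.

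Promoters differed between H4 and the other classes as well. In the RefSeq table of GRCh38.p14, which gives 250 bases before and 50 after each start, 35 of the 37 members had a promoter. CCAAT, searched on both strands like the motifs that follow, was present in all 6 H1, all 9 H2A, all 10 H2B and all 6 H3 promoters and in 0 of 4 H4 promoters, against 34.6% of all 35116 promoters. GGTCCG, the core of the H4 promoter element known as site II, was present in all 4 H4 promoters and in 2 of the others, against 11.3% of all. The octamer ATTTGCAT, a site for POU2F1, was found in 6 of 9 H2A and 6 of 10 H2B promoters, against 1.77% of all. TATAAA was found in 26 of 35, against 11.5% of all. None of these motifs contains another. Some neighbouring H2A and H2B genes lie on opposite strands with overlapping windows, so the same site can count in both classes. The octamer printed below for H2BC4 is also counted for H2AC6. The 130 bases before the start are shown for an H1, an H2B and 3 H4 genes whose values follow, with these 4 motifs, on either strand, in capitals.
H1-5 (chr6:27867589-27867718, minus strand): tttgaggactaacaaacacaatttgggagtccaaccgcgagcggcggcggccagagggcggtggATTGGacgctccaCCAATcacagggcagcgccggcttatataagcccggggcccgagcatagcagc
H2BC4 (chr6:26123927-26124056, minus strand): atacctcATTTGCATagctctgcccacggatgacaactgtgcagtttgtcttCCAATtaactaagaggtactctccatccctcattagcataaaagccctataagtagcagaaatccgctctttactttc
H4C2 (chr6:26027284-26027413, minus strand): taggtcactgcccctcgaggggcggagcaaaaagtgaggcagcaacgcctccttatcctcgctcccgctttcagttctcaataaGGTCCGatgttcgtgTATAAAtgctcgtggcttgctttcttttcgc
H4C11 (chr6:27823962-27824091, plus strand): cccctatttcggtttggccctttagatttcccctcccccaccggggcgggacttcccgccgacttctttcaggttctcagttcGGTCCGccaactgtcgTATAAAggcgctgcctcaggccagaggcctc
H4C16 (chr12:14771132-14771261, minus strand): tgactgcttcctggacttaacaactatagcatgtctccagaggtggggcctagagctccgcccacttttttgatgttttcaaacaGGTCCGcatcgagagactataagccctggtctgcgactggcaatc
A match describes letters in this window, not a bound site.

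Histone mRNA was lower after SGSS05-NS in every class. Together the 37 members took 0.850% and 0.679% of the gene counts of the DMSO libraries and 0.413% and 0.427% of those of the SGSS05-NS libraries. Their summed level was 8587 and 6879 CPM with DMSO and 3993 and 4334 CPM with SGSS05-NS, after TMM scaling. The treated sum was thus 53.8% of the control sum, a log2 ratio of -0.89. Both treated libraries lay below both DMSO libraries, and the gap was wider than the spread within either group. With 2 libraries against 2, an exact two-sided permutation test cannot give a p under 0.333, so no test is given for sums. In bulk RNA, fewer cells in S phase and less histone mRNA per cell cannot be told apart.

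Of the 37 members, 24 were tested. With edgeR's quasi-likelihood test, 13 fell and 0 rose at an adjusted p under 0.001, while 8.14% of all genes tested were called lower and 6.37% higher. At an adjusted p under 0.05, 21 members were lower and 1 was higher, against 23.7% and 22.6% of all genes tested. Their log2 fold changes ran from -1.93 to 0.82 with a median of -0.90, where the median over all genes tested was 0.01. Both treated libraries lay below both DMSO libraries in 21 of the 24 tested members (36.9% of all genes tested), above them in 1 (37.8% of all) and overlapped them in 2. A further contrast is given by the 183 other tested protein-coding genes with a single exon, of which 9 were lower and 30 higher, with a median of 0.29. The 13 called members each had at least 193 fragments in every library. A member that passed the filter on low counts only through its DMSO libraries, such as H3C14, had to differ, so the counts describe the members and do not test them as a set.

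**Figure D1:**
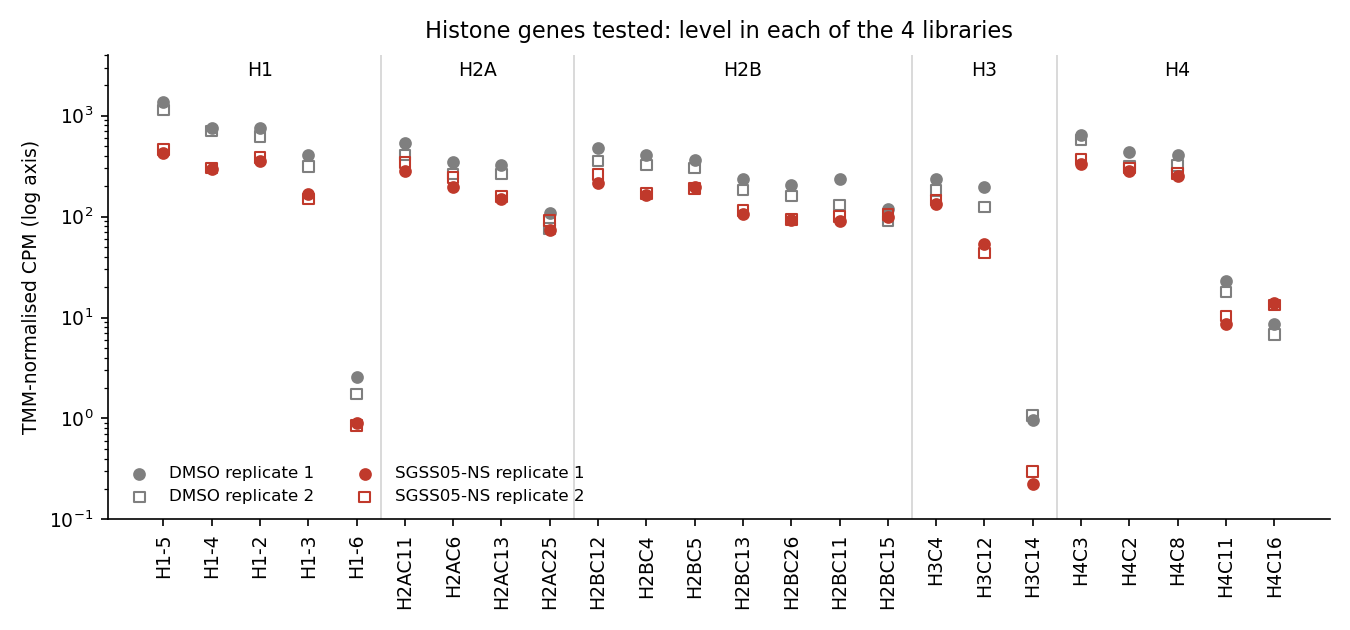
Level of each of the 24 tested histone genes (x axis, by class) in each library, as TMM-normalised CPM on a log axis (y axis); grey marks DMSO, red SGSS05-NS, filled circles replicate 1 and open squares replicate 2. The red marks lie under the grey ones in 21 genes, overlap them in H2AC25 and H2BC15 and lie above them in H4C16.

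Linker histone genes made up the largest summed CPM of any class with DMSO and the smallest share of it was left with SGSS05-NS. H1-5 had 34210 and 26621 fragments with DMSO and 9466 and 10915 with SGSS05-NS, or 1363, 1139, 427 and 464 CPM. Its treated libraries lay far below its DMSO libraries, and it fell 2.81-fold (log2 fold change -1.49, SE 0.11, adjusted p = 1.3e-06). H1-4 was at 755 and 704 CPM with DMSO and at 297 and 304 CPM with SGSS05-NS. The libraries of each group were close together, and the log2 fold change was -1.28 (SE 0.09, adjusted p = 1.3e-06). H1-3 went from 409 and 315 CPM to 167 and 150 CPM, a log2 fold change of -1.19 (SE 0.12, adjusted p = 1.7e-05). H1-2, which is known to make some polyadenylated mRNA as well, was at 757 and 618 CPM with DMSO and at 358 and 387 CPM with SGSS05-NS. It fell least of the 4 abundant H1 genes, with a log2 fold change of -0.89 (SE 0.11, adjusted p = 6.9e-05). These 4 genes encode the H1 proteins that most somatic cells use. Of the remaining pair, H1-6, known as a testis gene, had 65 and 41 fragments with DMSO and 20 in each treated library (log2 fold change -1.31, adjusted p = 0.0045, not called), and H1-1 had at most 2 fragments in a library. Summed over the class, H1 mRNA was at 3286 and 2779 CPM with DMSO and at 1249 and 1305 CPM with SGSS05-NS, or 42.1% of the control level.

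H2B had the most tested and the most called members of any class, although 4 of 5 tested members fell in H1. Of 7 tested H2B members, 5 fell and 2 were not called, with a median log2 fold change of -0.91. H2BC4 fell most, from 411 and 324 CPM with DMSO to 162 and 169 CPM with SGSS05-NS (log2 fold change -1.15, SE 0.12, adjusted p = 1.4e-05). H2BC12, the most abundant member of the class in CPM, went from 474 and 355 CPM to 213 and 261 CPM (log2 fold change -0.81, SE 0.14, adjusted p = 0.0006). The call was lost, at an adjusted p of 0.0012, when libraries were scaled by their size only. H2BC5 went from 361 and 304 CPM to 197 and 190 CPM (log2 fold change -0.78, adjusted p = 0.00011). H2BC13 went from 234 and 183 CPM to 107 and 115 CPM (log2 fold change -0.91, adjusted p = 8.6e-05). In all 4 genes the higher treated library was below the lower DMSO library. Of these 4, all but H2BC13 are also known to make polyadenylated mRNA. H2BC26, chosen after its values were seen, is the H2B gene of the HIST3 cluster on chromosome 1 and fell too, with a log2 fold change of -0.97 (adjusted p = 4.8e-05).

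The 2 tested H2B members without a call differed from each other. H2BC11, which also makes polyadenylated mRNA, had 5859 and 3043 fragments with DMSO and 2007 and 2353 with SGSS05-NS. Its DMSO libraries lay far apart, and its log2 fold change of -0.93 had an SE of 0.20 (adjusted p = 0.0024). Without DMSO replicate 1 the value was -0.46, and without DMSO replicate 2 it was -1.31 and called. H2BC15, chosen after its values were seen, was at 119 and 90.7 CPM with DMSO and at 98.0 and 105 CPM with SGSS05-NS. The groups overlapped, and the log2 fold change was -0.04 (SE 0.12, adjusted p = 0.79), or 0.16 without DMSO replicate 1.

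Among H2A genes 1 of 4 tested members fell. H2AC13 went from 322 and 264 CPM with DMSO to 150 and 158 CPM with SGSS05-NS (log2 fold change -0.93, SE 0.11, adjusted p = 4.4e-05). Of its exonic windows of the length of a read, only 43.9% are unique in the genome, so fragments shared with near-identical copies are missing from its count. H2AC11 was at 534 and 409 CPM with DMSO and at 285 and 342 CPM with SGSS05-NS (log2 fold change -0.59, SE 0.13, adjusted p = 0.0033). H2AC6, which also makes polyadenylated mRNA, was at 349 and 264 CPM with DMSO and at 198 and 245 CPM with SGSS05-NS (log2 fold change -0.47, SE 0.14, adjusted p = 0.015). For neither gene did the groups overlap, yet the gap between the nearest libraries was smaller than that between the 2 DMSO libraries. Without DMSO replicate 1 the log2 fold change was -0.39 for H2AC11 and -0.26 for H2AC6 (adjusted p = 0.13), and without DMSO replicate 2 it was -0.79 and -0.68. H2AC25, of the HIST3 cluster, had 2733 and 1790 fragments with DMSO and 1642 and 2163 with SGSS05-NS. Its groups overlapped (log2 fold change -0.16, adjusted p = 0.40), and without DMSO replicate 1 the sign turned, to 0.11.

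H3 was covered by 3 tested members. H3C12 had the largest fall of all called members, from 195 and 124 CPM with DMSO to 53.8 and 43.5 CPM with SGSS05-NS, 3.28-fold (log2 fold change -1.71, SE 0.18, adjusted p = 1.5e-05). In the annotation used here 40.3% of its exonic bases also belong to H2AC17 on the same strand. The study's methods name an older GENCODE release for counting, so the H3C12 count is uncertain. H3C4 was at 235 and 181 CPM with DMSO and at 133 and 145 CPM with SGSS05-NS (log2 fold change -0.58, SE 0.12, adjusted p = 0.0022). The value was -0.39 without DMSO replicate 1 and -0.77 without DMSO replicate 2. In the newer annotation a longer gene model on the same strand covers 96.6% of H3C4 and 85.3% of H2AC7. Whether that model was part of the annotation used for counting is not known. H2AC7 had 1 fragment in each library. H3C14 had 24 and 25 fragments with DMSO and 5 and 7 with SGSS05-NS, or 0.957, 1.07, 0.225 and 0.298 CPM (log2 fold change -1.93, adjusted p = 0.0021, not called). None of its read-length windows is unique in the genome, so it cannot be told from its copies. H3-4, the H3 gene known from testis, had 2 fragments or none in each library and was not tested. The class median of -1.71 rests on these 3 genes, whereas the summed level of the class, carried by H3C4 and H3C12, was 51.0% of that with DMSO.

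H4 is the histone that carries the lysine methylated by SETD8, and 2 of its 5 members fell. H4C3 was at 647 and 575 CPM with DMSO and at 329 and 372 CPM with SGSS05-NS (log2 fold change -0.80, SE 0.10, adjusted p = 8.5e-05). H4C11 was at 23.0 and 17.9 CPM with DMSO and at 8.70 and 10.4 CPM with SGSS05-NS (log2 fold change -1.10, SE 0.16, adjusted p = 0.00016). Only 10.2% of the read-length windows of H4C11 are unique in the genome. In both genes the groups were clearly apart.

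Smaller differences were measured for the next pair of H4 genes. H4C2 was at 434 and 312 CPM with DMSO and at 282 and 303 CPM with SGSS05-NS (log2 fold change -0.35, SE 0.13, adjusted p = 0.048). H4C8, which also makes polyadenylated mRNA, was at 406 and 322 CPM with DMSO and at 255 and 269 CPM with SGSS05-NS (log2 fold change -0.47, SE 0.11, adjusted p = 0.0054). Neither was called, and in both the DMSO libraries differed by more than the nearest libraries of the 2 groups. Without DMSO replicate 1 the log2 fold change was -0.10 for H4C2 (adjusted p = 0.60) and -0.30 for H4C8, and without DMSO replicate 2 it was -0.59 and -0.65.

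H4C16, the single gene of the HIST4 cluster on chromosome 12, was the only tested member with a positive log2 fold change, and it is named here after its values were seen. It had 215 and 159 fragments with DMSO and 308 and 312 with SGSS05-NS, or 8.57, 6.81, 13.9 and 13.3 CPM. Both treated libraries lay above both DMSO libraries, with a log2 fold change of 0.82 (SE 0.15) at an adjusted p of 0.0012, just outside the threshold. Without DMSO replicate 1 it was called, with a log2 fold change of 0.99. Its stem-loop and its GGTCCG match those of the other H4 genes printed above, and no CCAAT was found in its promoter window.

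**Figure D2:**
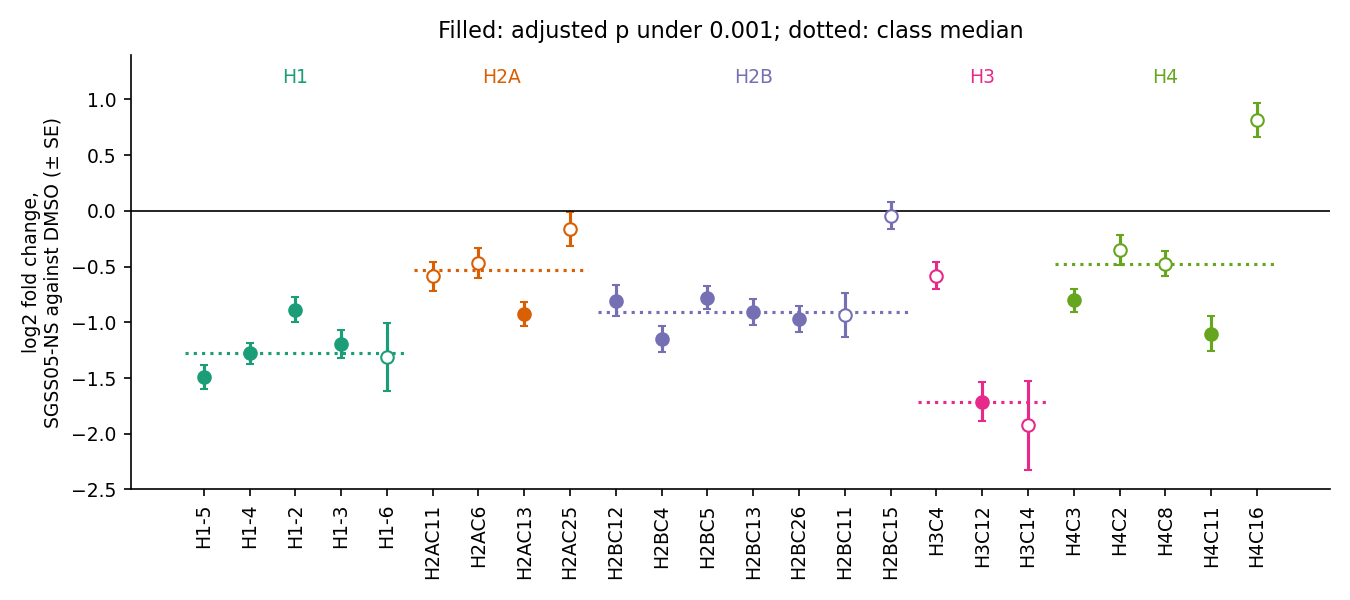
Log2 fold change of SGSS05-NS against DMSO with its standard error (y axis) for the 24 tested histone genes (x axis), coloured by class; filled points passed an adjusted p of 0.001 and dotted lines are class medians. Of the 24 points, 23 lie under 0, and H4C16 lies above it at 0.82.

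The classes were not lowered to the same extent. By summed CPM the SGSS05-NS libraries held 42.1% of the DMSO level for H1, 51.0% for H3, 55.7% for H2B, 66.3% for H2A and 67.5% for H4. H1 showed the lowest value also under each of the 7 other scalings and sets of libraries tried, while H2A and H4 exchanged places under 2 of them. Within the members' sum, H1 made up 38.3% and 40.4% with DMSO and 31.3% and 30.1% with SGSS05-NS. H4 made up 17.7% and 17.9% with DMSO and 22.2% and 22.3% with SGSS05-NS, and H2A 15.3% and 14.7% against 17.7% and 19.3%. For these 3 classes the groups did not overlap, while the shares of H2B and H3 differed little, at 22.5% to 24.1% and 4.37% to 5.01%. No test was run on the shares, for which the exact permutation test has the same limit as for the sums. The share of a class depends on which of its genes were matched.

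**Figure D3:**
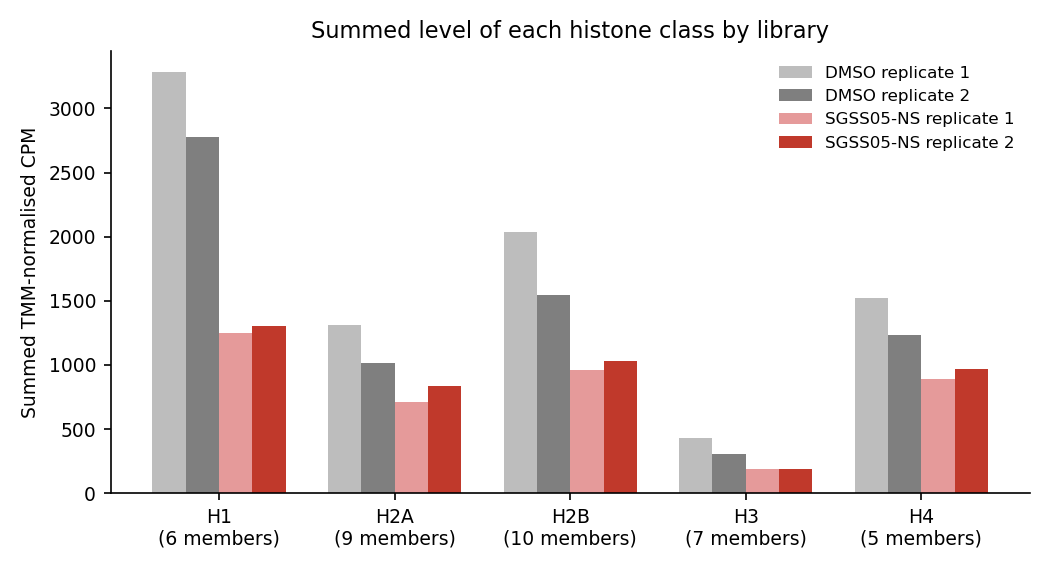
Summed TMM-normalised CPM (y axis) of the matched members of each histone class (x axis) in each library, with 1 bar per library. In every class both red bars (SGSS05-NS) are shorter than both grey bars (DMSO), from 42.1% of the control mean in H1 to 67.5% in H4.

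**Figure D4:**
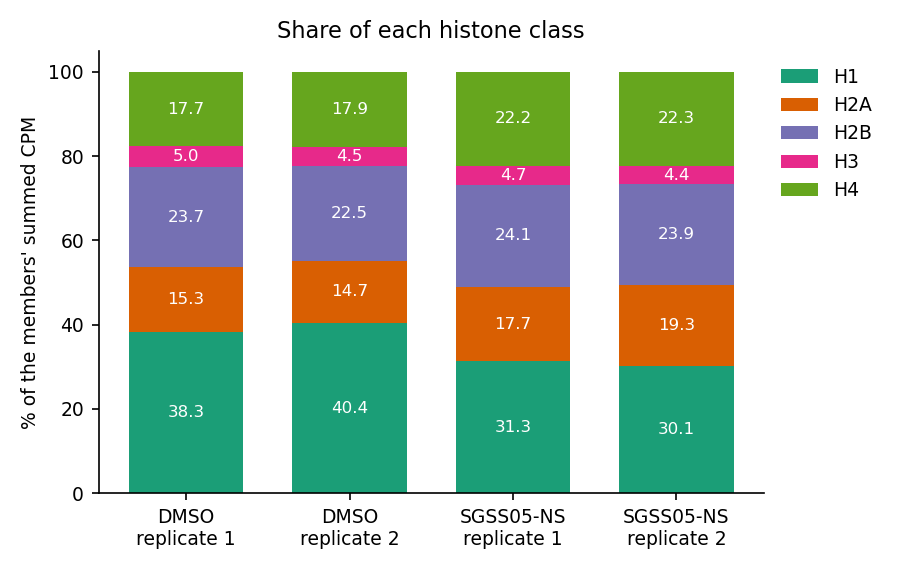
Share of each class, in percent of the members' summed CPM (y axis), in each library (x axis). H1 takes 38.3% and 40.4% of the DMSO columns and 31.3% and 30.1% of the SGSS05-NS columns.

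Levels of different genes are compared per kilobase of exon, and only among tested members with a single exon. With DMSO, H1-5 (1570 ± 199 CPM per kb, SD, n = 2) and H4C3 (1508 ± 125.5) were highest, and they differed by less than the spread of either. They were followed by H4C2 at 1045 ± 241, H2AC11 at 957 ± 179, H1-2 at 940 ± 134, H1-4 at 927 ± 45.7 and H2BC12 at 837 ± 171, and within these 5 no neighbours differed beyond their spread. With SGSS05-NS the order opened with H4C3 at 865 ± 75.5 CPM per kb and H4C2 at 820 ± 43.2, followed by H2AC11 at 636 ± 81.0 and H1-5 at 559 ± 33.3. H1-5 thus moved from the top of the order to below both H4 genes.

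The 2 libraries of a group also differed in histone mRNA. DMSO replicate 1 was above DMSO replicate 2 in 23 of the 24 tested members, with a median log2 difference of 0.36, and the exception was H3C14. SGSS05-NS replicate 1 was above SGSS05-NS replicate 2 in 5 of 24, with a median log2 difference of -0.11. The median over members of the log2 fold change was -0.73 without DMSO replicate 1 and -1.08 without DMSO replicate 2. Without SGSS05-NS replicate 1 this median was -0.86, and without SGSS05-NS replicate 2 it was -0.96.

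Gene structure and cluster divided the members further, as a description and with no test. The 14 tested members annotated with a single exon had a median log2 fold change of -0.92, all were below 0, and 9 were lower. The 10 tested members that also have an annotated form with 2 or more exons had a median of -0.63 and ranged from -1.71 to 0.82. H2BC15, H2AC25 and H4C16, with the 3 values nearest to or above 0, were all among the latter. Of the 8 members listed for known polyadenylated mRNA, 7 were tested and 4 fell, with a median of -0.81, against 9 of the other 17 tested members and a median of -0.93. By cluster, 12 of 20 tested HIST1 members on chromosome 6 fell, 1 of 2 in HIST3, and neither the 1 tested in HIST2 nor the 1 in HIST4 was called.

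The HIST2 cluster on chromosome 1 was almost without counts. Of its 9 members, 7 were listed at 0 in every library, also without regard to strand, among them H2BC21, another gene known for a polyadenylated form. H2BC21 and H2AC21 are listed at 0 although 99.2% and all of their read-length windows, respectively, are unique in the genome, whereas H2AC18 and H3C15 have no unique window. The check of uniqueness, here and above, covered exact matches in the primary assembly of GRCh37 only. H2BC18 had 15, 6, 2 and 3 fragments in the 4 libraries. No level is given for the genes listed at 0.

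The other genes of histone supply are described list by list. Counts of called genes stand beside 8.14% of all genes tested called lower and 6.37% called higher. They are not read as a result about a list as a whole. NPAT, the coactivator of histone gene transcription, was at 75.4 and 69.0 CPM with DMSO and at 67.2 and 67.0 CPM with SGSS05-NS (log2 fold change -0.11, adjusted p = 0.38). CCNA2, the S phase cyclin A, was the 1 of 8 tested genes of histone transcription and cyclins that fell (168 and 160 CPM against 117 and 96.9 CPM, log2 fold change -0.61, adjusted p = 0.00068). Its call was lost with library size as the only scaling and without SGSS05-NS replicate 2 (log2 fold change -0.48, adjusted p = 0.002). HINFP, which binds H4 promoters at site II, had a log2 fold change of 0.44 (adjusted p = 0.0096), and POU2F1, which binds the octamer, one of -0.29 (adjusted p = 0.034); neither was called. Over this list the median log2 fold change was -0.12.

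In the machinery that processes and degrades histone mRNA, 2 of 15 tested genes rose and 1 fell, with a median of 0.14. ZNF473, a zinc finger protein associated with the U7 RNP, rose from 54.3 and 53.0 CPM to 105 and 152 CPM (log2 fold change 1.26, SE 0.14, adjusted p = 3.5e-05). SRRT, which links the cap-binding complex to RNA processing, rose from 165 and 161 CPM to 268 and 260 CPM (log2 fold change 0.70, adjusted p = 8.8e-05). CPSF2, a subunit of the cleavage complex, fell from 160 and 164 CPM to 112 and 96.7 CPM (log2 fold change -0.63, adjusted p = 0.00035, but 0.0015 with scaling by library size only). SLBP, the stem-loop binding protein, was at 77.6 and 71.7 CPM with DMSO and at 81.4 and 91.8 CPM with SGSS05-NS (log2 fold change 0.22, adjusted p = 0.094). It is named because it binds the sequence printed above.

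Histone chaperones, which carry histones to and from DNA, gave 3 lower and 0 higher genes of 23 tested, with a median of -0.09. NASP, a chaperone of H3 and H4 and of H1, fell from 326 and 322 CPM to 188 and 175 CPM (log2 fold change -0.84, adjusted p = 2.8e-05). ATRX, a remodeller that acts with the H3.3 chaperone DAXX, had a log2 fold change of -0.98 (adjusted p = 1.4e-05), and ANP32E, which removes H2A.Z, also one of -0.98 (adjusted p = 1e-05).

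The list of replication-independent variants holds histones whose genes mostly lie outside these clusters and can make polyadenylated mRNA. Some of them, such as CENPA, also vary through the cell cycle. Of 11 tested, 3 fell and 0 rose, with a median of -0.35. H2AZ2 went from 320 and 341 CPM to 205 and 197 CPM (log2 fold change -0.72, adjusted p = 8.3e-05). CENPA, the H3 variant of centromeres, went from 49.6 and 43.1 CPM to 30.2 and 23.0 CPM (log2 fold change -0.80, adjusted p = 0.0005, but 0.0022 with scaling by library size only). H3-5, an H3.3-like gene, went from 4.07 and 5.31 CPM to 1.71 and 1.62 CPM (log2 fold change -1.49, adjusted p = 0.00036). In all 3 genes the groups were apart.

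Genes of S phase DNA synthesis gave 6 lower and 1 higher of 39 tested, with a median of -0.19. POLA1, the catalytic subunit of the polymerase that starts new strands, fell from 93.7 and 90.7 CPM to 46.5 and 55.0 CPM (log2 fold change -0.86, adjusted p = 4.9e-05). RRM2, of ribonucleotide reductase, had a log2 fold change of -0.66 (adjusted p = 0.00018) and GINS1, of the replicative helicase, one of -0.61 (adjusted p = 0.00028). The difference between this list and the histone genes was not tested. The share of cells in S phase was not measured in these libraries, and its part in the histone values was not tested.

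**Figure D5:**
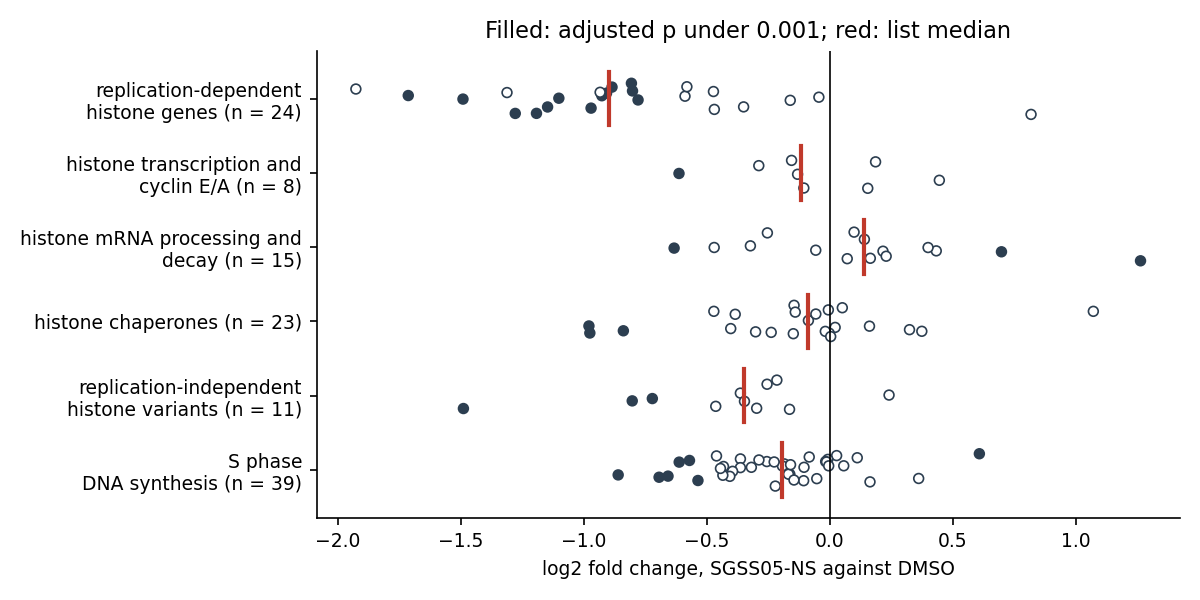
Log2 fold change of SGSS05-NS against DMSO (x axis) for the tested genes of 6 lists (y axis, with the number tested), 1 point per gene; filled points passed an adjusted p of 0.001 and red bars are medians. The median is -0.90 for the replication-dependent histone genes and between -0.35 and 0.14 for the other lists.

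Among 3 other RNAs without a poly(A) tail that were tested, none was called. RN7SK, which holds the elongation factor P-TEFb inactive, was at 50609 and 50302 CPM with DMSO and at 47644 and 58786 CPM with SGSS05-NS (log2 fold change 0.08, adjusted p = 0.66). RN7SL2, of the signal recognition particle, had a log2 fold change of 0.32 (adjusted p = 0.055) and TERC, the telomerase RNA, one of 0.27 (adjusted p = 0.088). Their treated replicate 2 was the highest library in each, and RN7SL2 was called higher without SGSS05-NS replicate 1 (log2 fold change 0.47).

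KMT5A, which encodes SETD8 itself, was at 54.6 and 56.8 CPM with DMSO and at 82.8 and 83.0 CPM with SGSS05-NS. Its libraries agreed closely within each group, and it rose by 0.57 on the log2 scale (SE 0.09, adjusted p = 0.00037 with edgeR's test). Without DMSO replicate 1 the adjusted p was 0.0017. Of the 7 tested noradrenergic markers 5 were called lower as well, with a median log2 fold change of -0.81, and their part in the histone values was not tested. The share of fragments that met no annotated exon on the counted strand was 12.4% and 12.3% with DMSO and 16.1% and 15.3% with SGSS05-NS. Its part in the histone values was not tested either.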

How the data were processed

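Per the labels and the study's methods, Trimmomatic 0.30 and STAR 2.4.2a were run on paired reads with hg19 and GENCODE, and the authors deposited raw counts of fragments per gene for each library, neither normalized nor pooled. The strand-specific column that matches the library preparation was used. Fragments with several map positions (14.3% to 15.4%) were given to no gene, which lowers counts of near-identical histone genes.

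Groups came from the labels. Rows were matched by identifier to GENCODE release 44 on GRCh37; 2282 rows, with 4.52% of the counts, stayed unnamed. Members, lists and tests were chosen with earlier results of these data known. edgeR 4.0.16 (R 4.3.3) gave filtering (filterByExpr), TMM scaling, CPM and its quasi-likelihood test, with p-values adjusted by Benjamini-Hochberg over 16468 genes, and "called", "fell" and "rose" mean an adjusted p under 0.001. The script was tested on simulated data. Replicates differed by more than sampling noise (chi-square per gene of 9.74 and 13.4).

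The text names the 4 most abundant members of each class, the 5 largest called falls and rises, the 3 genes of each other list with the smallest p, KMT5A and members with polyadenylated mRNA; NPAT, SLBP and other members were added after their values were seen. Alternatives were a likelihood ratio test, DESeq2 1.42.0, limma 3.58.1 (voom), other scalings, filters and thresholds, a replicate block, unstranded counts and each library left out.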

Additional observations from a re-analysis of the deposited data

How the results depend on the processing

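The 13 members that fell at an adjusted p under 0.001 were all still called under each alternative test, filter, count column and left-out library, with the exception of H2BC12 under scaling by library size only. More were added by other settings: 21 members were lower with no filter on low counts, 21 at an adjusted p under 0.05, and 13 to 20 with 1 library left out, the 20 without DMSO replicate 2. H4C16 was the 1 member higher under the likelihood ratio test, DESeq2, no filter, the replicate block, an adjusted p under 0.05, and, among left-out libraries (0 to 1), without DMSO replicate 1. With single libraries left out, the median log2 fold change ran from -1.08 to -0.73 over all tested members, from -1.39 to -1.01 for H1, from -0.73 to -0.33 for H2A, from -1.12 to -0.66 for H2B, from -1.86 to -1.36 for H3 and from -0.65 to -0.30 for H4. The log2 ratio of summed CPM ran from -1.36 to -1.12 for H1, from -0.77 to -0.39 for H2A, from -1.03 to -0.63 for H2B, from -1.19 to -0.71 for H3 and from -0.71 to -0.41 for H4. The median for H3 was -1.17 with no filter and -1.14 with at least 10 counts in every library. With 1 library left out H2AC25 ran from -0.41 to 0.11 and H2BC15 from -0.25 to 0.16, both positive without DMSO replicate 1, and RN7SK from -0.082 to 0.21, negative without SGSS05-NS replicate 2. In each list the count of lower genes was highest at an adjusted p under 0.05, where 23.7% of all genes tested were lower. These counts ranged from 3 to 17 for S phase, 3 to 7 for chaperones and 2 to 8 for variants. For processing they ranged from 0 to 3 and for transcription from 0 to 2. The cause was not tested. With the replicate number as a block, 18 members were lower, with a median of -0.88, and 1 higher. Under that block 12.2% of all genes tested were called lower. With no filter on low counts this share was 8.36%, and 29 members were tested in place of 24. At an adjusted p under 0.05 the share was 23.7%. With 1 library left out, 24 or 25 members were tested. Deviations of same-numbered libraries correlated at 0.06 over the genes tested. That value, from 2 libraries per group, cannot decide whether same-numbered libraries form pairs. A left-out library leaves its group with 1, assumed to vary like the other group. Low counts limit H1-6, H3C14 and the 13 members not tested.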

Other observations

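Fragments on the strand opposite to the members were few and were lower with SGSS05-NS as well. With DMSO there were 1290 and 1158 of them and with SGSS05-NS 400 and 371, or 51.4, 49.6, 18.0 and 15.8 CPM. Most came from H1-4, with 837, 772, 199 and 214 fragments, and H1-5, with 245, 222, 46 and 37. They made up 0.595% and 0.715% of the fragments on both strands of the members with DMSO and 0.449% and 0.363% with SGSS05-NS, against 4.64% to 5.05% over all genes.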
